A study of Mus musculus with 8 samples.

Results

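The regenerating (Reg) family of secreted C-type lectins was examined in sorted mouse Paneth cells. The 7 members Reg1, Reg2, Reg3a, Reg3b, Reg3d, Reg3g and Reg4 were taken by name, by matching each Ensembl ID of the count table to its GENCODE symbol, and all 7 were found among 55414 IDs. The mice were of the wild-type genotype and received an injection of phosphate-buffered saline (PBS) as control or of tumor necrosis factor (TNF), an inflammatory cytokine. The small intestine was taken 3 hours later and Paneth cells, the antimicrobial secretory cells of the crypt base, were purified on a cell sorter. There were 4 libraries per group, described as biological replicates. The study states the C57BL/6J strain for its mice, and says that its datasets hold both sexes. Age, dose and route of injection, and the sex behind each library, were details not given in the sources used here. The question of the series is which Paneth cell genes respond to TNF.

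Reg proteins are small lectin-fold proteins released into the gut lumen or the pancreatic ducts. Reg3b and Reg3g are bactericidal lectins of the small intestine. Reg3g binds the peptidoglycan of Gram-positive bacteria and keeps them away from the epithelium, whereas Reg3b also acts on Gram-negative bacteria. Both genes are known to be induced by microbes through Myd88 and by interleukin-22 through the transcription factor Stat3. Reg1 and Reg2 are best known from the pancreas, where they were found in regeneration and injury. Reg4 is a more distant relative made by secretory cells of the intestinal epithelium.

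In PBS the most abundant member per kilobase of transcript was Reg4, followed by Reg3g and Reg3b. In TNF Reg3g rose 3.47-fold and Reg3b 4.90-fold and Reg3g took the first place, while no change of Reg4 was called. Reg1 was scarce in PBS and fell by 2.31 on the log2 scale in TNF. Reg3a was scarce in both groups and was not called with all 8 libraries and the main filter, and Reg2 and Reg3d had at most 2 counts in any library.

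Of the 7 genes, 6 lie within 98.2 kb of chromosome 6 (GRCm39, 78347640 to 78445859). Their order is Reg3b, Reg3d, Reg3a, Reg2, Reg1 and Reg3g, with gaps of 2.4, 1.84, 11.8, 14.6 and 37.4 kb. Reg3b (ENSMUSG00000071356, plus strand, 78347640 to 78350455) and Reg3g (ENSMUSG00000030017, minus strand, 78443246 to 78445859) are the outermost genes. Reg3d (ENSMUSG00000068341, minus strand, 78352857 to 78355848) and Reg3a (ENSMUSG00000079516, plus strand, 78357692 to 78360810) lie next to Reg3b. Reg2 (ENSMUSG00000023140, plus strand, 78372606 to 78385089) and Reg1 (ENSMUSG00000059654, plus strand, 78399694 to 78405828) lie between Reg3a and Reg3g. Reg4 (ENSMUSG00000027876) is on the plus strand of chromosome 3, from 98129468 to 98144066. The canonical transcript of every member has 6 exons and no member overlaps another annotated gene.

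The coding sequences of the 7 genes were compared in pairs, since reads of near-identical copies can be assigned to the wrong gene. Reg1 and Reg2 were the most alike, at 78.7% identity. Reg3b and Reg3g followed at 75.9%, Reg3a and Reg3b shared 73.8%, and Reg4 shared 50.8% to 54.7% with the other members. Each 75-base stretch of each member's canonical transcript occurred in no transcript of another gene, so that 100% of these stretches can tell the members apart.

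The regions just upstream of the RefSeq starts of 4 genes are shown because they belong to the 3 abundant members and to Reg3d, a hardly detected neighbour of Reg3b. Each line gives the bases from 150 to 21 upstream of the RefSeq start, 5′ to 3′ on the gene's own strand, with matches to the searched motifs in capitals, of which the Reg3d stretch holds none. RefSeq and GENCODE starts can differ, and the stretches at the RefSeq starts of Reg1, Reg2 and Reg3b lie within the wider GENCODE extents given above. The sequences are from the RefSeq promoter table (GRCm38.p6), and each was found exactly once in GRCm39, at chr6:78347718-78347847 for Reg3b, chr6:78445878-78446007 for Reg3g, chr6:78355869-78355998 for Reg3d and chr3:98129322-98129451 for Reg4.
Reg3b: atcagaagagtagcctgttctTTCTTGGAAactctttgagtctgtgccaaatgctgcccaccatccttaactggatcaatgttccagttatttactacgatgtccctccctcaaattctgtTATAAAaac
Reg3g: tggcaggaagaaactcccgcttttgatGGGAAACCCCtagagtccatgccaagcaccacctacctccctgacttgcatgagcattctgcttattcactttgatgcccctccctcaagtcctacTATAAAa
Reg3d: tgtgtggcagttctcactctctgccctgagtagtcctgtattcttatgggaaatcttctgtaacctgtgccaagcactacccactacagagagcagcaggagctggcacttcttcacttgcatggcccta
Reg4: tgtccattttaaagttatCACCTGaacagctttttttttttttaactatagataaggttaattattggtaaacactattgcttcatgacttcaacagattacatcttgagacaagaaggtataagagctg

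Across 250 bases upstream of the RefSeq starts, Reg3b and Reg3g were the most alike of all pairs, with 68.4% identity against 43.8% to 56.2% for the other pairs. The longest run they shared had 20 bases and ended at the start site. Motifs were searched on both strands of these 250 bases, and no matches overlapped. The TATA box, with the letters TATAAA, was within the last 30 bases of the Reg1, Reg2, Reg3b and Reg3g regions, and Reg3g held another match at 161 to 156 bases upstream. Of 32851 RefSeq promoters, 12.4% held such a match at any place in the 250 bases. TTCNNNGAA, the palindrome that STAT factors recognise, was found in Reg3b (129 to 121 bases upstream) and Reg3d (238 to 230 bases upstream) and in 7.0% of all promoters. The core that Rel and NF-kappaB factors recognise (3 G, any 5 bases, then CC) was found in Reg3g (123 to 114 bases upstream) and in 45.8% of all promoters. The E-box CACCTG was found in Reg2, Reg3a, Reg3b, Reg3d and Reg4 and in 17.2% of all promoters. Reg3b and Reg3d thus both held the STAT palindrome, although Reg3b was abundant and Reg3d hardly detected. A match is a match of letters only.

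The 8 libraries held 23824717 to 32576077 counts and 16712 to 19135 detected genes. The cells were labelled as purified Paneth cells, and the Paneth cell products Lyz1, Itln1, Ang4 and Mmp7 were abundant in all libraries. TNF replicate 4 stood apart from the other libraries. Its score on the second principal component was 63.9, against -29.1 to 4.22 elsewhere, and alpha-defensin (Defa) genes took 51.5% of its counts against 32.0% to 37.9%. Its TMM scaling factor, which corrects library size for a few dominant genes, was 0.448, against 0.995 to 1.36 elsewhere. Below, normalized CPM are counts divided by the TMM-scaled library size and plain CPM are counts divided by all counts of the library, both in the usual CPM unit. With library size alone, the median change over the tested genes moved by -0.404 on the log2 scale.

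Reg3g had 38752, 26198, 38810 and 37084 counts in PBS replicates 1 to 4 and 79199, 130805, 82664 and 57819 in TNF replicates 1 to 4. As normalized CPM these were 1039, 974, 1529 and 839 in PBS and 2810, 4526, 2901 and 4965 in TNF. Every TNF library was above every PBS library, both in counts and in normalized CPM. The mean level was 1095 ± 301 normalized CPM in PBS and 3801 ± 1110 in TNF (SD, n = 4). Reg3g thus rose by 1.80 on the log2 scale, with a standard error of 0.28 (edgeR quasi-likelihood test, adjusted p = 0.000466). The 95% interval ran from 1.18 to 2.41. Among all genes of a library ordered by count, Reg3g was at place 29 to 35 in PBS and 14 to 20 in TNF. With library size alone the log2 fold change was 1.34 (edgeR, adjusted p = 0.00147), or 1.72 above the median of all genes, and without TNF replicate 4 it was 1.65 (edgeR, adjusted p = 8.73e-05).

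Reg3b, at the other end of the cluster, had 6602, 3649, 5984 and 5293 counts in PBS and 15059, 25844, 10399 and 17252 in TNF. As normalized CPM these were 177, 136, 236 and 120 in PBS and 534, 894, 365 and 1482 in TNF. The groups did not overlap, and the TNF libraries were more spread than the PBS libraries. The mean was 167 ± 51.8 normalized CPM in PBS and 819 ± 494 in TNF (SD, n = 4). Reg3b rose by 2.29 on the log2 scale, with a standard error of 0.41 (edgeR, adjusted p = 0.00107) and a 95% interval of 1.40 to 3.19. Reg3b moved from place 179 to 396 in the PBS libraries to place 39 to 114 in the TNF libraries. The highest normalized value, in TNF replicate 4, was not the highest in plain CPM, where that library had 664 and TNF replicate 2 had 890. With library size alone the log2 fold change was 1.70 (edgeR, adjusted p = 0.00103), or 2.08 above the median of all genes, and without TNF replicate 4 it was 1.85 (edgeR, adjusted p = 0.000263).

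**Figure D1:**
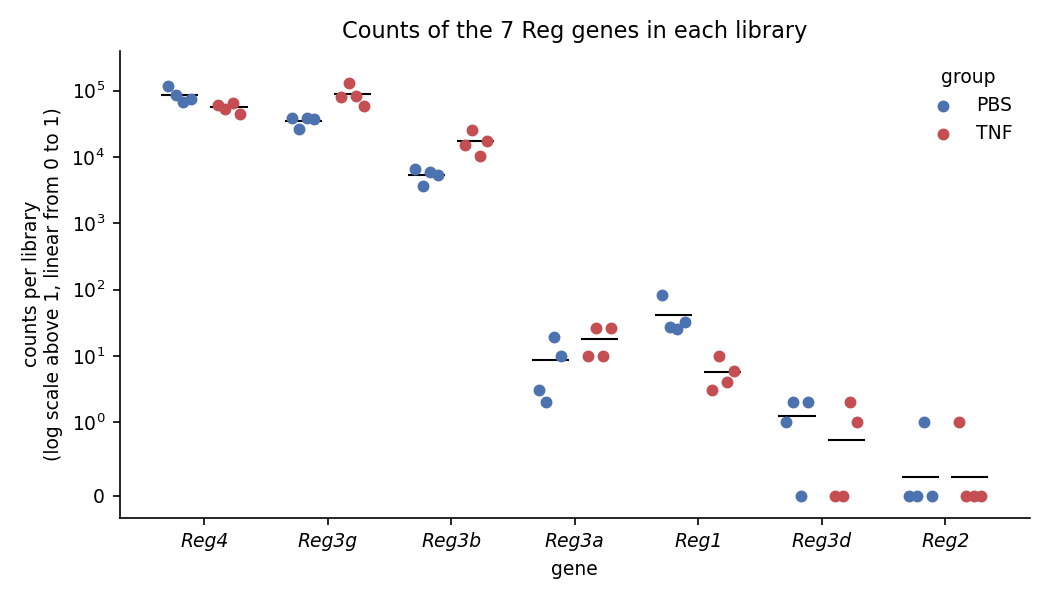
Deposited counts of the 7 Reg genes in each of the 4 PBS and 4 TNF libraries (points, replicates 1 to 4 from left to right, y axis linear from 0 to 1 and logarithmic above), with the group mean as a line. Reg3g and Reg3b lie higher in all TNF libraries, from 57819 and from 10399 counts, Reg1 lies lower, and Reg2 and Reg3d reach at most 1 and 2 counts.

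Reg4 had 116200, 84975, 67745 and 73588 counts in PBS and 61573, 52983, 64560 and 44145 in TNF. As normalized CPM these were 3114, 3159, 2669 and 1665 in PBS and 2185, 1833, 2265 and 3791 in TNF. Counts were lower in every TNF library than in every PBS library, but normalized CPM overlapped, with PBS replicate 4 below all TNF libraries. TNF replicate 4 had the lowest count and the highest normalized value. The group means were 2652 ± 694 and 2519 ± 869 normalized CPM (SD, n = 4), and the log2 fold change of -0.07 had a standard error of 0.29 (edgeR, adjusted p = 0.858). The 95% interval of -0.71 to 0.56 leaves room for a fold of 0.610 to 1.48. In plain CPM the means were 3083 ± 702 and 2087 ± 379 with overlapping groups, and with library size alone the log2 fold change was -0.56 (edgeR, adjusted p = 0.0831), or -0.18 against the median of all genes. Without TNF replicate 4 it was -0.33 (edgeR, adjusted p = 0.201), and without PBS replicate 4 it was -0.29 (edgeR, adjusted p = 0.398), so the value moved with the scaling and with single libraries of both groups.

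Reg1 had 83, 27, 25 and 32 counts in PBS and 3, 10, 4 and 6 in TNF. As normalized CPM these were 2.22, 1.00, 0.985 and 0.724 in PBS and 0.107, 0.346, 0.140 and 0.515 in TNF. All PBS libraries were above all TNF libraries, with PBS replicate 1 the highest. The log2 fold change was -2.31 with a standard error of 0.53 (edgeR, adjusted p = 0.00490), a level 4.97-fold lower in TNF. Reg1 passed the filter on low counts only through the PBS group, with 4 PBS libraries and 0 TNF libraries at or above 0.379 plain CPM, so that a tested Reg1 had to be lower in TNF. With every gene of at least 1 count tested, the log2 fold change of Reg1 was -2.35 (edgeR, adjusted p = 0.000252). Among the PBS libraries, PBS replicate 1 was also the highest for 5 of 7 goblet cell markers, most of all for Clca1 with 554 normalized CPM against 41.1 to 44.0, and not for Tff3 and Spink4. Without that library the log2 fold change of Reg1 was -1.87 (edgeR, adjusted p = 0.0125).

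Reg3a, whose coding sequence is close to those of Reg3b and Reg3g, had 3, 2, 19 and 10 counts in PBS and 10, 26, 10 and 26 in TNF. The groups overlapped, since PBS replicate 3 had more counts than TNF replicates 1 and 3. It passed the filter through 1 PBS and 3 TNF libraries. The log2 fold change was 1.67 with a standard error of 0.79 (edgeR, adjusted p = 0.111), and the 95% interval of -0.07 to 3.40 reached from no change to a large rise. Without PBS replicate 3 it was 2.65 (edgeR, adjusted p = 0.0247). With every gene of at least 1 count tested it was 1.62 (edgeR, adjusted p = 0.04995). Reg3a was called in these fits but not under the other 13 alternatives in which it was tested. Without TNF replicate 4 the log2 fold change was 1.02 (edgeR, adjusted p = 0.239).

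Reg2 had 1 count in PBS replicate 3 and 1 in TNF replicate 1 and 0 in the other 6 libraries. Reg3d had 1, 2, 0 and 2 counts in PBS and 0, 0, 2 and 1 in TNF, 8 in all. Both genes were below the filter and were not tested, and no fold was formed. A count of 0 allows up to 3 counts, or 0.0921 to 0.126 plain CPM depending on the library, for counting error only. Reg3d thus had 8 counts over 5 libraries and Reg2 had 2 counts over 2 libraries, too few to compare the groups.

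Of the 7 members 5 were tested and 3 were called, 2 higher and 1 lower. Of 13368 tested genes 43% were called, 23.4% higher and 19.6% lower, so that calls were common in this comparison. With library size alone 757 genes were called higher and 2425 lower, in place of 3122 and 2625. The values of Reg3b, Reg3g and Reg1 did not overlap between the groups, as for 42.1% of all tested genes. For Reg1, which passed the filter only through the PBS libraries, lower values in TNF followed from the filter. The number of called members is therefore not read as a result about the family.

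**Figure D2:**
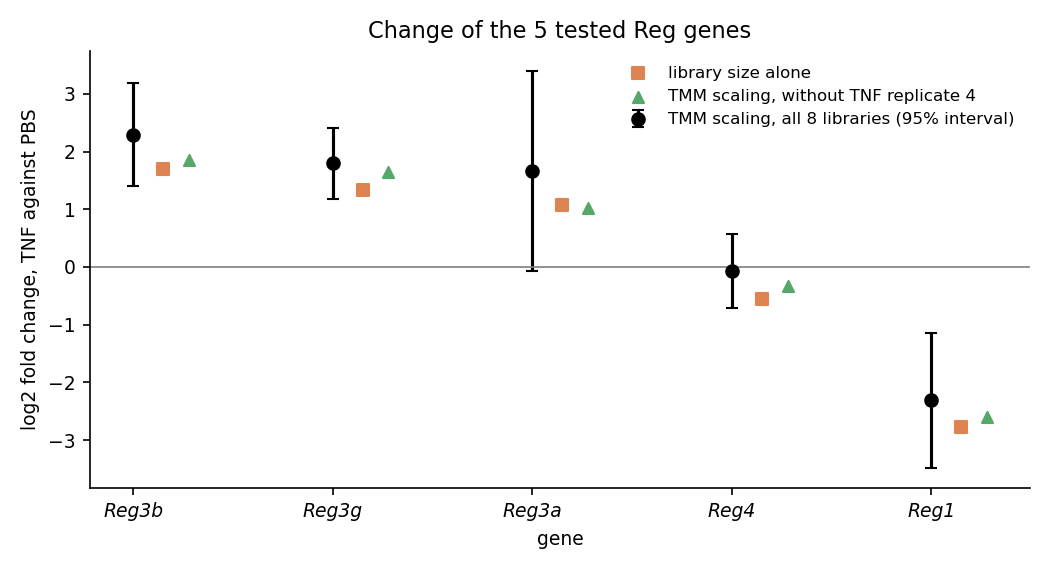
Log2 fold change of TNF against PBS for the 5 tested Reg genes (black points, TMM scaling, bars are 95% intervals), with the values for library size alone (orange squares) and without TNF replicate 4 (green triangles). Reg3b and Reg3g stay between 1.34 and 2.29 and Reg1 between -2.77 and -2.31, while the intervals of Reg3a and Reg4 include 0.

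Levels of different members were compared as normalized CPM per kilobase of canonical transcript. In PBS these were 2582 ± 676 for Reg4, 1408 ± 387 for Reg3g and 212 ± 65.6 for Reg3b (SD, n = 4). Reg1 at 1.30 ± 0.709 and Reg3a at 0.342 ± 0.386 were far below, and their ranges overlapped. In TNF they were 4885 ± 1420 for Reg3g, 2452 ± 846 for Reg4 and 1038 ± 626 for Reg3b, with Reg3a at 1.16 ± 1.08 and Reg1 at 0.292 ± 0.201. The ranges of Reg4 and Reg3b in TNF, 1785 to 3691 and 462 to 1878, overlapped between libraries. Within each TNF library Reg4 was nevertheless 1.58 to 4.77 times Reg3b.

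Ratios of counts within a library need no scaling factor. The Reg4 to Reg3g count ratio was 3.00, 3.24, 1.75 and 1.98 in PBS and 0.777, 0.405, 0.781 and 0.764 in TNF. Per kilobase it was 1.32 to 2.46 in PBS and 0.307 to 0.592 in TNF. Reg4 was thus above Reg3g in 4 of 4 PBS libraries and below it in 4 of 4 TNF libraries, TNF replicate 4 included. The Reg3b to Reg3g count ratio was 0.152 ± 0.0140 in PBS and 0.203 ± 0.0713 in TNF (SD, n = 4). It ranged from 0.126 in TNF replicate 3 to 0.298 in TNF replicate 4, around the PBS range of 0.139 to 0.170, so that no difference beyond the spread was seen. Reg3g therefore stayed the more abundant of the 2 lectins in all 8 libraries, at 3.40 to 8.06 times Reg3b per kilobase.

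Together the 7 genes made up 0.455% ± 0.0776 of the counts of a PBS library and 0.595% ± 0.108 of those of a TNF library (SD, n = 4), with overlapping ranges of 0.356% to 0.544% and 0.459% to 0.722%. Within these counts Reg4 went from 67.4% ± 6.62 to 35.7% ± 7.13, Reg3g from 28.3% ± 5.78 to 53.5% ± 6.12 and Reg3b from 4.29% ± 0.896 to 10.8% ± 3.40. The other 4 genes took 0.0397% and 0.0160%. As summed normalized CPM, with no test, the 7 genes were at 2620 to 4440 in PBS and 5530 to 10200 in TNF, or up to 7260 without TNF replicate 4, and the groups did not overlap. Whether the sums overlapped thus depended on the scaling.

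**Figure D3:**
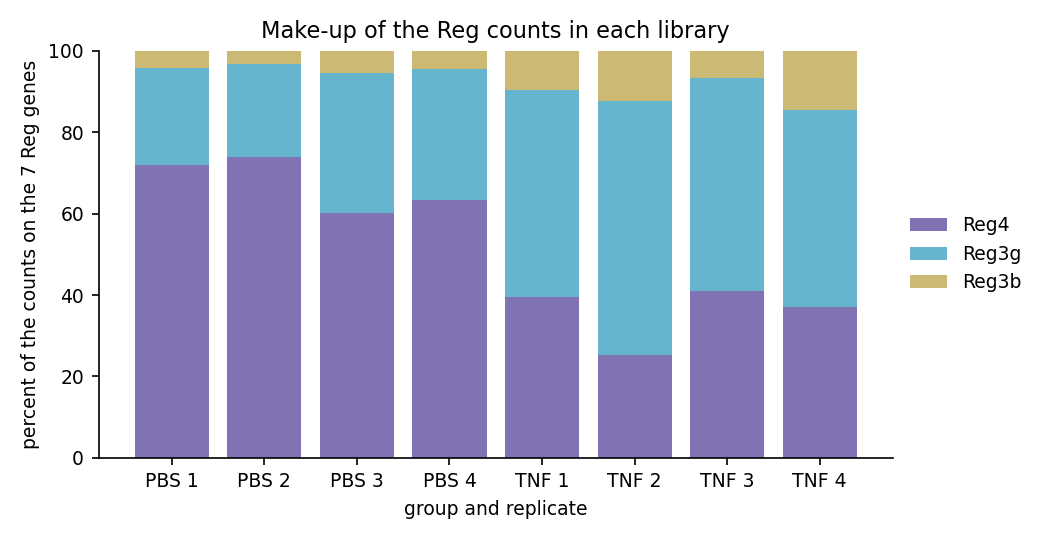
Percent of the counts on the 7 Reg genes that fell on Reg4 (purple), Reg3g (blue) and Reg3b (yellow) in each library; the other 4 genes together are too few to see. Reg4 takes 60.2% to 74.0% in the PBS libraries and 25.3% to 41.0% in the TNF libraries, and Reg3g 22.8% to 34.5% and 48.5% to 62.4%.

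Level and direction did not follow the order on chromosome 6. The 2 outermost genes, Reg3b and Reg3g, were abundant and rose. Between them, Reg3d and Reg2 were hardly detected, Reg3a was scarce and not called, and Reg1 was scarce and fell. The nearest detected genes outside the cluster were the processed pseudogene Gm5576, with 3 counts in all libraries together, 154 kb from Reg3b, and Gcfc2, 3450 kb from Reg3g. Gcfc2 was at 3.12 ± 0.619 and 2.61 ± 0.493 normalized CPM (log2 fold change -0.25, SE 0.21 by edgeR, adjusted p = 0.366). On the lower-coordinate side of Reg4, the nearest detected gene was Notch2, a receptor of cell fate decisions, 71.8 kb away. Notch2 was not called (log2 change -0.22, SE 0.16, edgeR, adjusted p = 0.294).

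**Figure D4:**
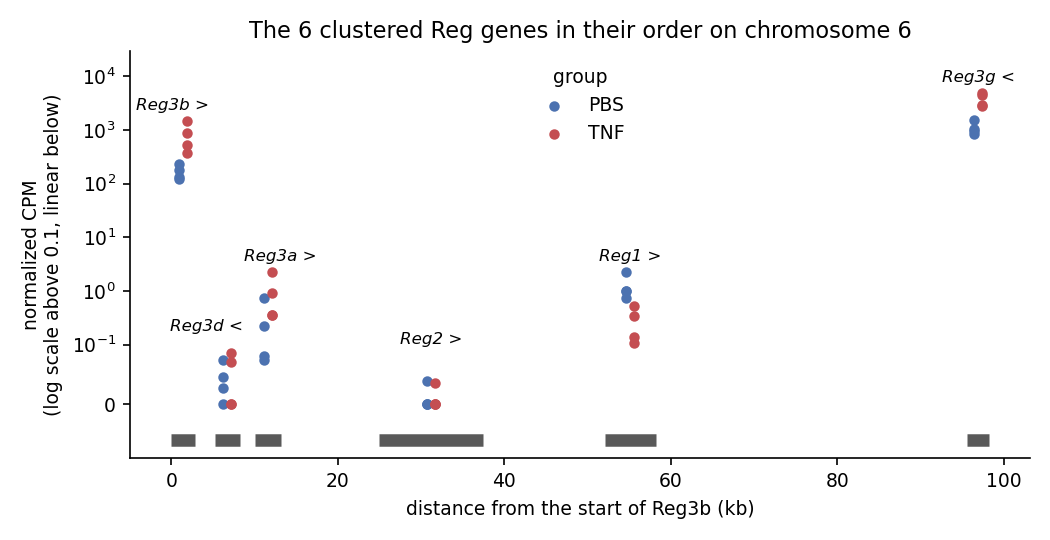
Normalized CPM of the 6 clustered Reg genes in the 4 PBS and 4 TNF libraries (points), placed at each gene's distance from the start of Reg3b in kb; grey bars show the extent of the genes, > and < their plus or minus strand, and the y axis is linear below 0.1. The genes at both ends lie at 120 to 4965 normalized CPM and the 4 genes between them at no more than 2.23.

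The genes through which Reg3 genes are known to be induced were examined next, from lists of related genes. Calls in these and in the marker lists stand beside 43% of all tested genes called, 23.4% higher and 19.6% lower, and lists such as the receptors and kinases (8 of 15 called) or the galectins (2 of 5 called) lie near that share. Of 16 receptors and kinases upstream of Reg3 genes 15 were tested, 5 were higher, 3 were lower and the median log2 fold change was 0.06, against 0.03 over all tested genes. Osmr, the oncostatin M receptor, was at 0 to 0.107 normalized CPM in PBS and 13.1 to 22.4 in TNF (log2 fold change 8.26, edgeR, adjusted p = 1.54e-07). It passed the filter on low counts only through the TNF libraries, so that a tested Osmr had to be higher. Il6st, the signalling subunit shared by the interleukin-6 and oncostatin M receptors, rose from 28.3 ± 4.09 to 166 ± 29.6 normalized CPM (log2 fold change 2.55, edgeR, adjusted p = 1.41e-06). Stat3 rose from 60.2 ± 10.7 to 244 ± 41.3 normalized CPM (log2 fold change 2.02, SE 0.18, edgeR, adjusted p = 9.19e-06). Il22ra1, the interleukin-22 receptor subunit of epithelial cells, was at 35.9 ± 6.55 and 30.7 ± 8.03 normalized CPM and was not called (log2 fold change -0.22, SE 0.20, edgeR, adjusted p = 0.400). Il6ra, the interleukin-6 receptor subunit, fell by 2.18 on the log2 scale (SE 0.32, edgeR, adjusted p = 0.000292). The cytokine gene Il22 itself, one of the immune cell markers below, had 0 counts in all 8 libraries. Exposure of the cells to interleukin-22 was not measured.

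Of 9 microbe sensors and their adaptors 7 were tested, 5 were higher, 1 was lower and the median was 2.18. The smallest p were those of Tlr2, a receptor of bacterial lipoproteins (log2 fold change 5.38, SE 0.14, edgeR, adjusted p = 1.19e-08), of Myd88, the adaptor of most Toll-like receptors (2.18, SE 0.11, adjusted p = 3.26e-07), and of Ripk2, the kinase of the Nod receptors (3.21, SE 0.19, adjusted p = 7.62e-07). Of 15 genes known to respond to Stat3 or interleukin-22, 11 were tested, 10 were higher, none was lower and the median was 3.77. Among the 10, Lcn2 and Muc1 passed the filter only through the TNF libraries. Pigr was tested and not called (0.23, SE 0.18, edgeR, adjusted p = 0.331). The genes not tested were S100a8 and S100a9, with 0 counts in all libraries, and Saa1 and Saa2, with at most 3 and 2 counts in any library. The smallest p were those of Cebpd, a transcription factor of the acute-phase response (3.77, SE 0.15, adjusted p = 9.95e-08), of Duoxa2, the maturation factor of the oxidase Duox2 (6.98, SE 0.33, adjusted p = 2.19e-07), and of Socs3, a feedback inhibitor of Stat3 (5.60, SE 0.29, adjusted p = 3.19e-07), all by edgeR. Reg3b at 2.29 and Reg3g at 1.80 were thus below the median of that list, from PBS levels that were higher than those of Socs3 (7.91 ± 2.60 normalized CPM) or Cebpd (3.01 ± 0.277 normalized CPM).

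Genes that act beside or after the Reg proteins were also listed. Extl3, a receptor for Reg proteins, was at 33.7 ± 2.98 and 37.1 ± 8.49 normalized CPM and was not called (log2 fold change 0.14, SE 0.16, edgeR, adjusted p = 0.509), whereas Egfr, reported to respond to Reg4, rose by 1.08 (SE 0.12, edgeR, adjusted p = 5.45e-05). Of 13 other secreted antimicrobial proteins 11 were tested, and 1 was called. This was Pla2g2a, a phospholipase that attacks bacterial membranes, which rose from 443 ± 24.5 to 889 ± 103 normalized CPM (log2 fold change 1.01, SE 0.15, edgeR, adjusted p = 0.000324), while the median was 0.44. Of 7 galectins, another class of secreted lectins, 6 were matched and 5 tested, and Lgals8 (1.58, SE 0.17, edgeR, adjusted p = 4.22e-05) and Lgals9 (1.19, SE 0.15, edgeR, adjusted p = 0.000130) rose. Reg3b and Reg3g thus had larger log2 fold changes than the called antimicrobial protein and the called galectins, which is a description of these values without a test between genes.

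**Figure D5:**
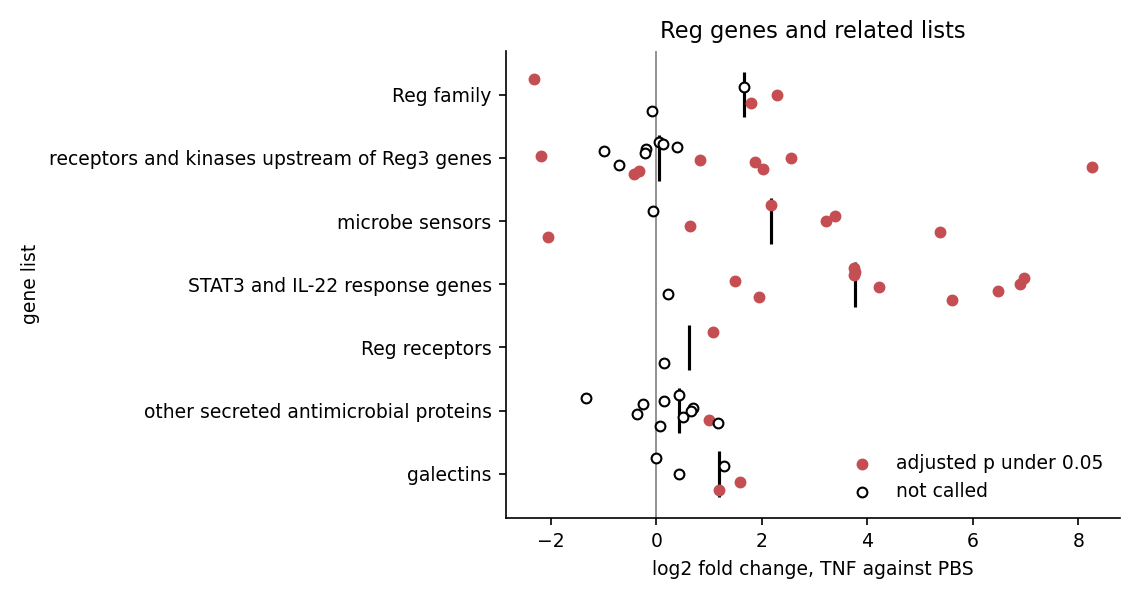
Log2 fold change of TNF against PBS for each tested gene of the Reg family and 6 related lists (filled, edgeR adjusted p under 0.05; open, not called; vertical lines are list medians; vertical positions within a list only separate the points). The medians are 2.18 for microbe sensors and 3.77 for Stat3 and interleukin-22 response genes, and 0.06 for receptors and kinases.

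Reg genes are also made by cells other than Paneth cells, and fewer cells of a type and less RNA per cell cannot be told apart in these bulk libraries. The study reports that contaminating cells were very rare among its sorted Paneth cells. Of 8 enterocyte markers 1 (Apoa4, which passed the filter only through the PBS libraries) was lower and none higher in TNF, and their summed level was 50.8 to 73.8 normalized CPM in PBS and 39.2 to 87.7 in TNF. Of 7 goblet cell markers 1 was higher (Muc2) and 2 were lower (Clca1 and Fcgbp), with sums of 7150 to 11200 and 11200 to 25400 normalized CPM. Clca1 was at 170 ± 255 normalized CPM in PBS, or 42.7 ± 1.5 without PBS replicate 1, against 29.3 ± 8.69 in TNF. Of 7 enteroendocrine markers 6 were tested and 4 were higher (Chga, Chgb, Gcg and Tph1), with sums of 25.9 to 34.5 and 50.0 to 126 normalized CPM. Of 10 pancreatic acinar markers, relevant to Reg1 and Reg2, 5 were at 0 in all libraries, among them Cpa1 and Pnlip, and none of the 2 tested was called. Their sums of 1650 to 3000 normalized CPM in PBS and 2010 to 3190 in TNF came almost wholly from the colipase gene Clps, at 1650 to 3000 and 2010 to 3180. Of 8 immune markers Cd3e, Cd79a and Il22 were at 0 in all libraries and Cd52 was higher, with sums of 2.65 to 3.57 and 4.29 to 6.96 normalized CPM, and of 3 tuft cell markers none was called, with sums of 11.9 to 27.3 and 7.58 to 52.9. Of 8 Paneth cell markers 1 was higher (Nupr1) and 1 was lower (Cd24a). The highest TNF sums of all 7 marker lists were in TNF replicate 4. The low TMM scaling factor of that library, 0.448, raises its normalized CPM for every gene. For the Paneth list this was 583000 normalized CPM, against at most 245000 in the other TNF libraries and 180000 to 253000 in PBS. For the enterocyte, goblet, enteroendocrine, acinar, immune and tuft lists the other TNF libraries reached at most 52.2, 12000, 58.9, 2250, 4.46 and 14.7 normalized CPM. The part of these markers in the Reg values was not tested.

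Genes with the most similar levels over the 8 libraries were found for each tested member by Pearson's r of log2 CPM, among 8489 or 8490 genes with a symbol and a mean of at least 5 normalized CPM. They were Golt1b (0.988), Pwp1 (0.987) and Mtfr1 (0.987) for Reg3g and Nop16 (0.988), Pbdc1 (0.985) and Ube2n (0.983) for Reg3b. For Reg4 they were Pdzd11 (0.955), Ola1 (0.935) and Ndufa9 (0.927), for Reg1 Abhd14a (0.955), Nsun3 (0.955) and Dhx34 (0.953), and for Reg3a Zfp747 (0.948), Zfp26 (0.937) and Cnot4 (0.933). Reg3b and Reg3g had an r of 0.974 with each other, and of 0.908 after the group means were taken out. Reg3g and Reg4 had an r of 0.0465, and of 0.422 after the group means were taken out. These values describe 8 points in 2 groups that share library and scaling factor, TNF replicate 4 included, and carry no test.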

How the data were processed

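RNA-seq libraries of sorted Paneth cells (Aurum Total RNA Mini and TruSeq Stranded mRNA kits per the labels) were analysed from the raw counts per gene that the authors deposited, without normalization. The submitters' processing notes name FastQC 0.12, STAR 2.7.10a, DESeq2 and build mm39. The counter, annotation and strand setting behind the counts, and how shared reads were handled, were details not given in the sources used here. Symbols and positions came from GENCODE M39 (54749 of 55414 IDs matched).

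TNF was compared with PBS over all 13368 genes passing filterByExpr with the quasi-likelihood test of edgeR 4.0.16 (R 4.3.3), TMM scaling and no covariate. P-values were Benjamini-Hochberg adjusted and called under 0.05. Standard errors came from the F statistic. The procedure was tested on simulated data. Libraries count as replicates by their labels, and p-values measure the spread between them.

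The members and gene lists were chosen with earlier results of these data known. Named were all members, Stat3, Socs3, Il22ra1, Il6st, Osmr, Extl3, up to 3 called genes with the smallest p per list, the nearest detected neighbours (1 is not reported here) and the 3 most similar genes per tested member. Il6ra, Lcn2, Muc1, Pigr, Saa1, Saa2, S100a8, S100a9 and the marker genes beside the results were named after their values were seen. Alternatives were RLE scaling, library size alone, TMM without Defa genes, 2 other filters, DESeq2 1.42.0, limma-voom (limma 3.58.1), a replicate block, an adjusted p under 0.01 and leaving out each library.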

Additional observations from a re-analysis of the deposited data

Results flagged for a closer look

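The Reg4 to Reg3g count ratio of TNF replicate 2, 0.405, lay apart from those of the other TNF libraries, 0.764 to 0.781. Its gap to the nearest library was 0.953 of the range of the group, above Dixon's 95% critical value for 4 samples. It was the 1 such value among 16 groups of libraries looked at, and chance marks about 1 group in 20. All TNF ratios were below all PBS ratios with or without it.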

How the results depend on the processing

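Reg3b, Reg3g and Reg1 kept their direction and their call under all alternatives in which they were tested, with log2 fold changes of 1.70 to 2.54, 1.34 to 2.00 and -2.77 to -1.87. Except with every gene of at least 1 count tested, Reg1 passed the filter only through PBS libraries and had to be lower in TNF. Reg1 and Reg3a were not tested when 4 libraries had to reach 1 CPM, which left 2 called members (45.5% of all genes tested were called). With every gene of at least 1 count tested, Reg3a was called at 1.62 (edgeR, adjusted p = 0.04995) as the fourth called member (24.9% of all genes called). Reg4 changed sign without PBS replicate 2, at 0.0186 (edgeR, adjusted p = 0.972). The difference between the groups in the Reg share of counts was 0.140 percentage points of all counts and 0.278 points of the counts outside Defa genes. Over all genes, 3182 (23.8%) were called with library size alone in place of 5747, with 21 calls in the related lists, and 3909 (29.2%) at an adjusted p under 0.01.

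Leaving out 1 library at a time gave log2 fold changes of 1.85 to 2.54 for Reg3b, 1.64 to 2.00 for Reg3g, -2.61 to -1.87 for Reg1, 1.02 to 2.65 for Reg3a and -0.33 to 0.02 for Reg4. It gave 3 to 4 called Reg genes, 27 to 31 calls among the 6 related lists (28 of 51 tested genes with all libraries), beside 35.1% to 50.4% of all genes called, a difference in the Reg3b to Reg3g count ratio of 0.0195 to 0.0771 and in the Reg share of 0.0975 to 0.185 points.

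The labels state no pairing of libraries with equal replicate numbers, and none was assumed. Same-numbered libraries had correlations of deviations of 0.0229, 0.0663, -0.144 and -0.126, and 4 of 8 libraries correlated best with their own number. So few libraries cannot settle whether the numbers mark pairs. With the replicate number as a block, 5087 genes (38.1%) and the same count of 3 Reg genes were called. The log2 fold changes were then 2.14 for Reg3b (edgeR, adjusted p = 0.0137), 1.79 for Reg3g (adjusted p = 0.00561), -2.24 for Reg1 (adjusted p = 0.0249), 1.80 for Reg3a (adjusted p = 0.122) and -0.10 for Reg4 (adjusted p = 0.845), and 26 calls were made in the related lists. Depth limits Reg2, Reg3d, Reg3a and Reg1, with at most 83 counts in any library.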
